A study of Mus musculus with 14 samples.

Results

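The 5 genes described here, Mpo, Elane, Prtn3, Ctsg and Ms4a3, are the classic genes of the primary (azurophil) granules of neutrophils and of the granulocyte-monocyte progenitors (GMP) that make them. They were chosen by name from the 55487 genes counted in mouse bone marrow cells, and all 5 have a row in the tables. Mpo encodes myeloperoxidase, the heme enzyme that makes hypochlorous acid from hydrogen peroxide. Elane, Prtn3 and Ctsg encode neutrophil elastase, proteinase 3 and cathepsin G, the serine proteases stored with it. Ms4a3 encodes a membrane protein of the MS4A family that is used as a marker of granulocyte-monocyte progenitors.

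The RNA came from LSK (Lin-Sca1+c-kit+) cells, which hold the stem cells, and LK (Lin-c-kit+) cells, the myeloid progenitors, both sorted from bone marrow of C57BL/6 mice. By the study's methods the marrow carried a heterozygous Jak2V617F knock-in allele (Jak2VF/+) switched on by Mx1Cre, an interferon-inducible Cre that recombines widely in blood cells, after pI-pC injection, and had been transplanted into lethally irradiated C57BL/6 recipients. Intraperitoneal PBS or IL-1β was given for 16 weeks in 3 doses per week, with 0.5 μg of IL-1β in each dose by the study's methods. Each population has 3 libraries from PBS mice and 2 from IL-1β mice. Both treatments carried the mutation, so a wild-type level of the 5 genes was not analysed here, and the sources used here do not say whether a library was 1 mouse or a pool, or whether host cells were removed. The study used young adult mice by its reporting summary, with no age given per library. The p-values therefore measure only the spread between these libraries, which may be technical in part. Mesenchymal stromal cells (MSC) grown for 21 days from wild-type C57BL/6 marrow and then kept for 72 h with PBS (2 libraries) or 5 ng/ml IL-1β (2 libraries) gave a second setting.

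Primary granules are the first granules that a neutrophil precursor makes, at the promyelocyte stage, and secondary and tertiary granules follow as the cell matures. The timing of synthesis sorts the granule proteins, so that transcripts of the primary granule proteins peak in GMP and promyelocytes and are nearly gone from mature neutrophils. In these early cells C/EBP factors, PU.1, RUNX1 and MYB are known activators of the genes.

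Counted read pairs numbered 12172400 to 18544346 in the sorted PBS libraries and 4393233 to 8641124 in the sorted IL-1β libraries, so depth and treatment cannot be told apart. The lowest count of any of the 5 genes in a sorted library was 292, for Ms4a3. The PBS replicate 3 libraries of LSK and LK stood apart. Genes lying wholly inside a well expressed gene of the opposite strand had a median of 0.0229% (LSK) and 0.0208% (LK) of that gene's counts in them, over 55 such pairs, against 0.562% to 1.24% in the other 8 sorted libraries. The part of this in any result was not tested. Their sample titles are also numbered after the others. The counts of called genes among the 5 and in the gene lists are therefore given with and without them. The labels of the sorted cells were checked against markers, comparing LK with LSK cells under PBS. All 8 markers of the LSK gate and stem cells were called lower in LK cells, and all 11 erythroid markers higher. Over all genes tested, 19.4% were called lower and 12.4% higher. In bulk RNA, fewer cells of a type and less RNA per cell cannot be told apart.

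Mpo (ENSMUSG00000009350) lies on the plus strand at chr11:87793581-87804413 of GRCm38, the build of the files. Prtn3 (ENSMUSG00000057729, chr10:79874476-79883174) and Elane (ENSMUSG00000020125, chr10:79886247-79888215) are neighbours on the plus strand, 3073 bases apart. Ctsg (ENSMUSG00000040314, chr14:56099881-56102574) and Ms4a3 (ENSMUSG00000024681, chr19:11629496-11640851) are on the minus strand. Their promoters are printed because these genes of 4 chromosomes moved together in the data below. Each sequence is from RefSeq (GRCm38.p6), runs 5′ to 3′ along the gene from 250 bases before to 50 bases after its RefSeq start, and shows in capitals the matches to 5 short motifs.
Mpo: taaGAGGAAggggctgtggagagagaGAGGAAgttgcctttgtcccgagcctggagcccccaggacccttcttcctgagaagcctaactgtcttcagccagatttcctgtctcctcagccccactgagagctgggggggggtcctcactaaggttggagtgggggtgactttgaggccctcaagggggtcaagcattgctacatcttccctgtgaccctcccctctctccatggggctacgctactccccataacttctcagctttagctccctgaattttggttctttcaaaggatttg
Elane: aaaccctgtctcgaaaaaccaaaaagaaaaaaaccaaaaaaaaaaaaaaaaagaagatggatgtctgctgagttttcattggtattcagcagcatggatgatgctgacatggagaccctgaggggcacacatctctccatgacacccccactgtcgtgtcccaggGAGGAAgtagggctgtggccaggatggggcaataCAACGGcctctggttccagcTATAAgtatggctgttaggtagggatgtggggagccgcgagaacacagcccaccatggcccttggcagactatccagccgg
Prtn3: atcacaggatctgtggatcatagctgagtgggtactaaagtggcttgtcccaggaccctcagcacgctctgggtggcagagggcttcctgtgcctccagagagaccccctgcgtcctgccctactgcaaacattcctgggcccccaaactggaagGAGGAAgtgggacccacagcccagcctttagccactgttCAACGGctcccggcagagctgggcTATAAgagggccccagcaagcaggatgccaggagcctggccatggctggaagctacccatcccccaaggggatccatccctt
Ctsg: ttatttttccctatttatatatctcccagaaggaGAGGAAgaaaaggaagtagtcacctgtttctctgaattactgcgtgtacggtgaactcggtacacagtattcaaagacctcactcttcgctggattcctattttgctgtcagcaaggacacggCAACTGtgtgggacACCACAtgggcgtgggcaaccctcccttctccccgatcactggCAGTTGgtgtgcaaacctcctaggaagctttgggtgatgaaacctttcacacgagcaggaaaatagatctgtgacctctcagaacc
Ms4a3: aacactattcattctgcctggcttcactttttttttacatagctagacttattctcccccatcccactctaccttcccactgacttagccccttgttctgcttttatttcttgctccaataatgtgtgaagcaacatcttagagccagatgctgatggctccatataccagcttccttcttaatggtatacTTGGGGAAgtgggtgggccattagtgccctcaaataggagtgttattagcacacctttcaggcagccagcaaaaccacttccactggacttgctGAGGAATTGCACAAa

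The motifs, searched on both strands, were GAGGAA (the core of PU.1 and other ETS factors), TGTGGT (RUNX), TTNNGNAA (C/EBP) and CAACNG (MYB), together with TATAA on the gene's strand. The windows are chr11:87793534-87793833 for Mpo, chr10:79886062-79886361 for Elane, chr10:79879417-79879716 for Prtn3, chr14:56102525-56102824 for Ctsg and chr19:11640802-11641101 for Ms4a3. The Prtn3 gene of the files begins upstream of the RefSeq start, so its window lies wholly inside that gene. The Mpo and Elane genes of the files also begin upstream of their RefSeq starts, at 87793581 and 79886247. Their windows therefore lie partly inside those genes. GAGGAA was found in 5 of the 5 promoters and in 28.3% of 32851 promoters of this length, CAACNG in 3 (35% of all) and TATAA in 2 (17.5% of all). The neighbours Elane and Prtn3 have the same order of matches, with GAGGAA starting at -85 and -95, CAACGG at -51 and -56 and TATAA at -31 and -32 from the start. TTNNGNAA was found in 1 of the 5 (40.7% of all) and TGTGGT in 1 (16.8% of all), namely Ms4a3 and Ctsg. A match is a string of letters in this window and not a measured binding site.

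Across the sorted populations, the 5 genes were lowest in LSK cells with PBS and highest in LK cells with IL-1β. The study asked what long exposure to IL-1β does to gene expression in Jak2-mutant stem and progenitor cells, and for these genes the answer could be read in both populations. Levels are in CPM, which divides each count by the library's total after TMM scaling over the 10 sorted libraries, and, where genes are compared with each other, in CPM per kb of exon. Fold changes are log2 values of IL-1β against PBS. They and the p-values, adjusted by Benjamini-Hochberg over all genes tested, are from the quasi-likelihood test of edgeR. Called genes are those with an adjusted p under 0.05 whose log2 fold change also exceeded 0.5 in either direction.

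Mpo in LSK cells was at 1868, 1785 and 2287 CPM in PBS replicates 1, 2 and 3, and at 7174 and 7290 CPM in IL-1β replicates 1 and 2. Both IL-1β libraries lay far above the PBS libraries and next to each other. In LK cells it was at 3204, 4005 and 6866 CPM with PBS and at 12992 and 11339 CPM with IL-1β, again without overlap. The log2 fold change was 1.91 (SE 0.28, adjusted p = 0.0210) in LSK and 1.38 (SE 0.31, adjusted p = 0.0405) in LK cells, a 3.75-fold and a 2.60-fold rise. Per kb of exon Mpo was the highest of the 5 genes in every sorted group, and with IL-1β its mean ranked 10 among the 16680 genes detected in LSK and 4 among the 18029 detected in LK cells, from 40 and 15 with PBS.

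Elane, the elastase that is mutated in cyclic and severe congenital neutropenia, was the protease with the steepest response in LSK cells. It stood at 91.5, 47.0 and 122.3 CPM in the PBS libraries and at 684 and 1003 CPM in the IL-1β libraries. The groups were far apart, although the PBS libraries themselves spread widely. In LK cells it was at 447, 661 and 1100 CPM with PBS and at 2764 and 2356 CPM with IL-1β. The log2 fold change was 3.32 (SE 0.39, adjusted p = 0.0115) in LSK and 1.80 (SE 0.37, adjusted p = 0.0374) in LK cells.

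Prtn3, which also cleaves matrix proteins and is the target of the antibodies of granulomatosis with polyangiitis, was at 302.5, 193.6 and 407.4 CPM in LSK cells with PBS and at 1002 and 1976 CPM with IL-1β. In LK cells it was at 477, 572 and 999 CPM with PBS and at 3059 and 2690 CPM with IL-1β. All IL-1β libraries were above all PBS libraries of their population, but the 2 IL-1β LSK libraries differed more from each other than those of LK cells. The log2 fold change was 2.34 (SE 0.38, adjusted p = 0.0288) in LSK and 2.08 (SE 0.31, adjusted p = 0.0135) in LK cells.

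Ctsg, a protease with chymotrypsin-like activity, was at 199.6, 153.5 and 351.7 CPM in LSK cells with PBS and at 718 and 1192 CPM with IL-1β. Its LSK groups did not overlap, yet the log2 fold change of 2.06 (SE 0.38) missed the threshold with an adjusted p of 0.0516. In LK cells it was at 294, 344 and 635 CPM with PBS and at 2080 and 1640 CPM with IL-1β, which is 2.13 on the log2 scale (SE 0.35, adjusted p = 0.0201).

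Ms4a3 was the lowest of the 5 genes per kb of exon in every sorted group and had the largest fold change of them in both populations. In LSK cells it was at 22.1, 27.7 and 37.7 CPM with PBS and at 419.5 and 606 CPM with IL-1β. In LK cells it was at 94.3, 112.5 and 176.4 CPM with PBS and at 888 and 686 CPM with IL-1β. The IL-1β libraries lay above all PBS libraries in both populations, by more than they differed from each other. The log2 fold change was 4.16 (SE 0.31, adjusted p = 0.000801) in LSK and 2.63 (SE 0.28, adjusted p = 0.00518) in LK cells. Ranked by fold change, Ms4a3 was number 28 of the 13132 genes tested in LSK and 135 of 12835 in LK cells.

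**Figure D1:**
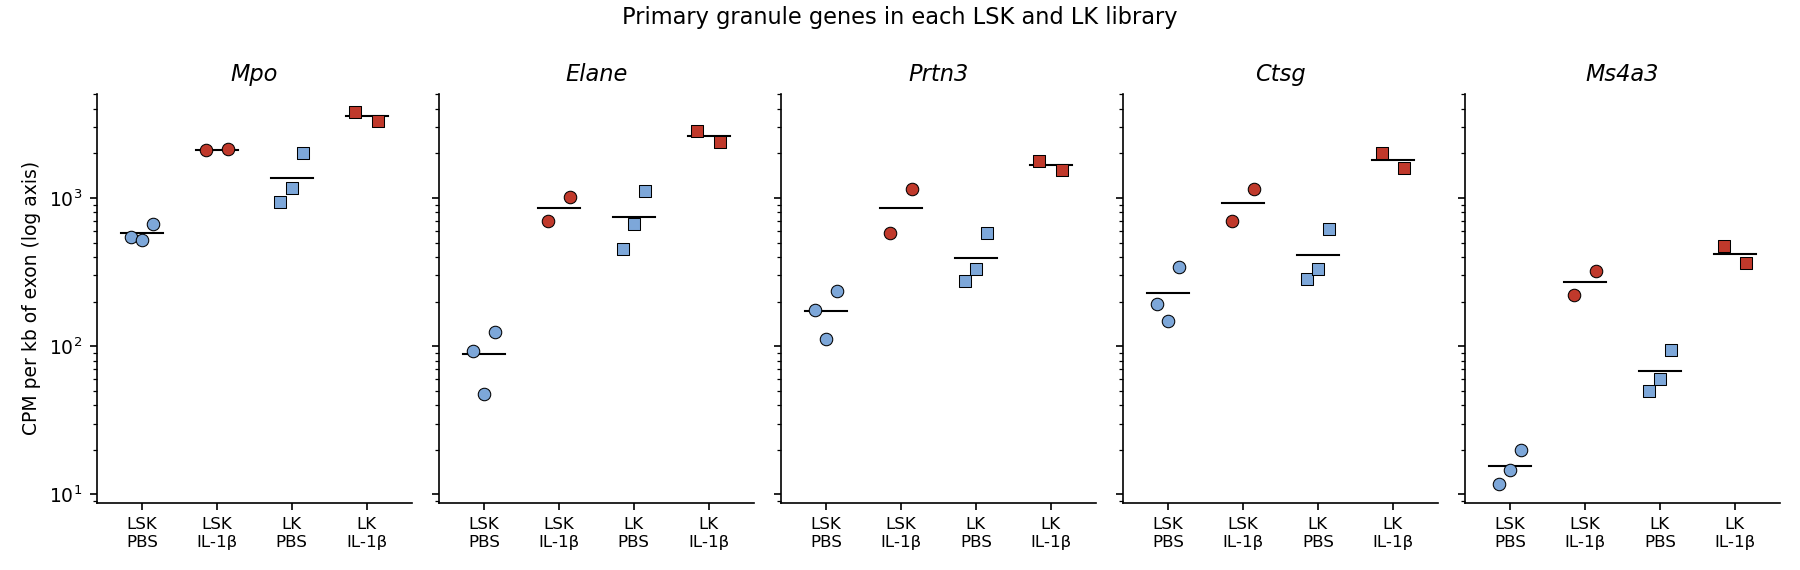
Level of each of the 5 genes as CPM per kb of exon (log axis, shared by the panels) in every LSK (circles) and LK (squares) library with PBS (blue) or IL-1β (red), with the group mean as a line. In each panel the IL-1β points lie above the PBS points of the same population, and Ms4a3 in LSK cells moves from a mean of 15.5 to 272 CPM per kb.

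In count, 4 of the 5 genes were called higher in LSK cells with IL-1β, all but Ctsg, where 0.32% of all genes tested were called higher. In LK cells 5 of 5 were called higher, against a background of 6.77%. All IL-1β libraries were above all PBS libraries for 5 of 5 genes in LSK and 5 of 5 in LK cells, where 16.7% and 23.4% of all genes tested were higher without overlap. Without PBS replicate 3 all 5 were called higher in LSK cells (0.591% of all genes were called higher then) and all 5 in LK cells (12.3%), with log2 fold changes of 2.03 to 4.40 in LSK and 1.76 to 2.93 in LK cells. For Ctsg in LSK cells it was 2.48 (adjusted p = 0.0017) without that library. That library had the highest level of each of the 5 genes among the PBS libraries of both populations.

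Leaving out 1 of the 2 IL-1β libraries leaves an arm of 1, which is then assumed to vary like the PBS libraries. Without either IL-1β library 1 gene, Ms4a3, was called in LSK cells, with adjusted p of 0.0951 to 0.280 for Elane, Mpo and Prtn3. In LK cells 0 of the 5 were called without IL-1β replicate 1 (for Ms4a3 the log2 fold change was then 2.42, adjusted p = 0.0696), 1 without IL-1β replicate 2 and 1 without PBS replicate 2, and leaving out PBS replicate 1 ended the call of Mpo (adjusted p = 0.0619). All log2 fold changes of the 5 genes were above 1 in each of these fits.

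Markers of other cell types were summed in the same libraries. The summed level of the 8 LSK gate and stem cell markers was 587 to 661 CPM in LSK cells with PBS and 171.5 to 199 CPM with IL-1β. Among those called lower (0.312% of all genes tested in LSK were) stood Hlf, a stem cell gene, and Flt3, the receptor of multipotent progenitors, with log2 fold changes of -2.08 and -2.42. Ly6a, which encodes the Sca1 of the gate, had a mean of 34.1 ± 6.8 CPM in the 3 PBS and 20.5 ± 8.1 CPM in the 2 IL-1β libraries of LSK cells (± SD) and was not called (log2 fold change -0.72, adjusted p = 0.310). Of the 8, none was at 0 in all libraries of a sorted group. The 9 mature neutrophil markers (S100a8, S100a9, Retnlg, Ltf, Camp, Ngp, Cxcr2, Mmp8 and Mmp9) summed to 2.87 to 13.9 CPM with PBS and 23.8 to 83.2 CPM with IL-1β in LSK cells, and at 6.03 to 19.2 and 155.5 to 361 CPM in LK cells. Of the 7 tested in each population, 0 were called in LSK and 2, S100a8 and S100a9, in LK cells. Over all genes tested in LK cells, 6.77% were called higher and 2.57% lower. In LK cells the stem cell marker sum was 52.9 to 80.4 CPM with PBS and 54.9 to 55.9 CPM with IL-1β. Of the 10 monocyte and macrophage markers 9 were tested, none was called higher in either population, and in LK cells 2 (Csf1r and Ly86) were called lower. Their sum was 257 to 327 CPM with PBS and 248.5 to 274 CPM with IL-1β in LSK cells. The part of these markers in the levels of the 5 genes was not tested.

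**Figure D2:**
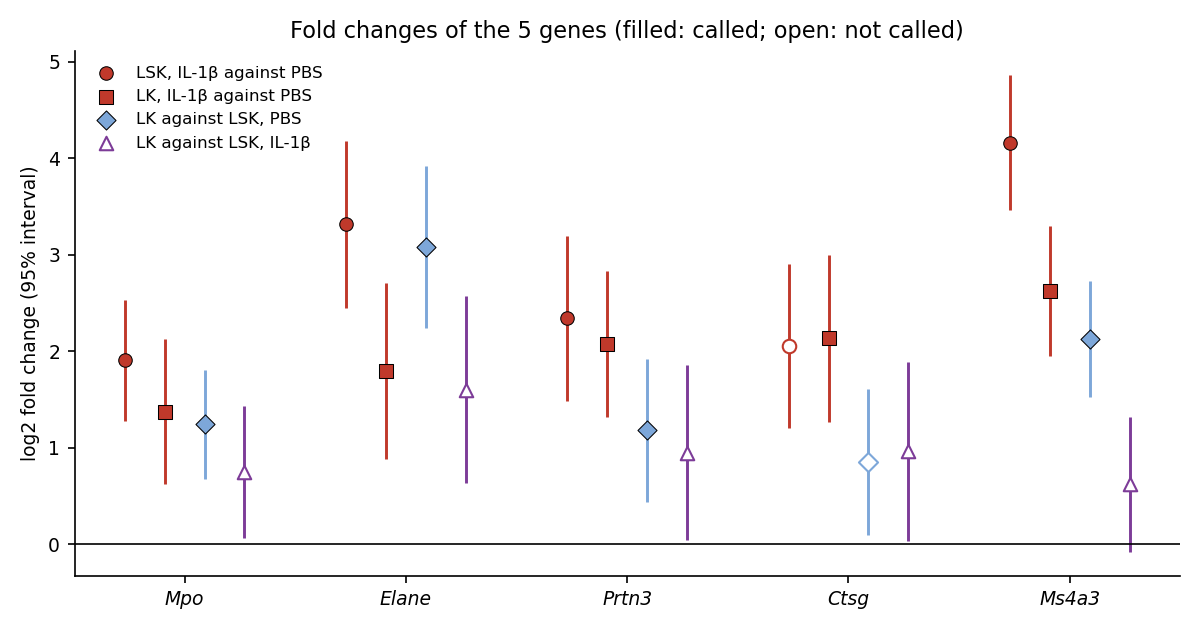
Log2 fold changes of the 5 genes with their 95% intervals (vertical axis), for IL-1β against PBS in LSK and LK cells and for LK against LSK cells under each treatment. Filled symbols were called and open symbols were not. All points lie above 0, and Ms4a3 and Elane show the widest gap between the LSK response (4.16 and 3.32) and the LK response (2.63 and 1.80).

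The amount of RNA that these 5 genes took up was large. Together they held 0.215% to 0.338% of all counted read pairs in LSK cells with PBS and 0.978% and 1.12% with IL-1β. The same share ran from 0.442% to 0.973% in the PBS libraries of LK cells and was 2.14% and 1.83% in their IL-1β libraries. The share in each IL-1β LSK library was thus above that in each PBS LK library. Leaving the 5 genes out of the library sizes changed no call among them.

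**Figure D3:**
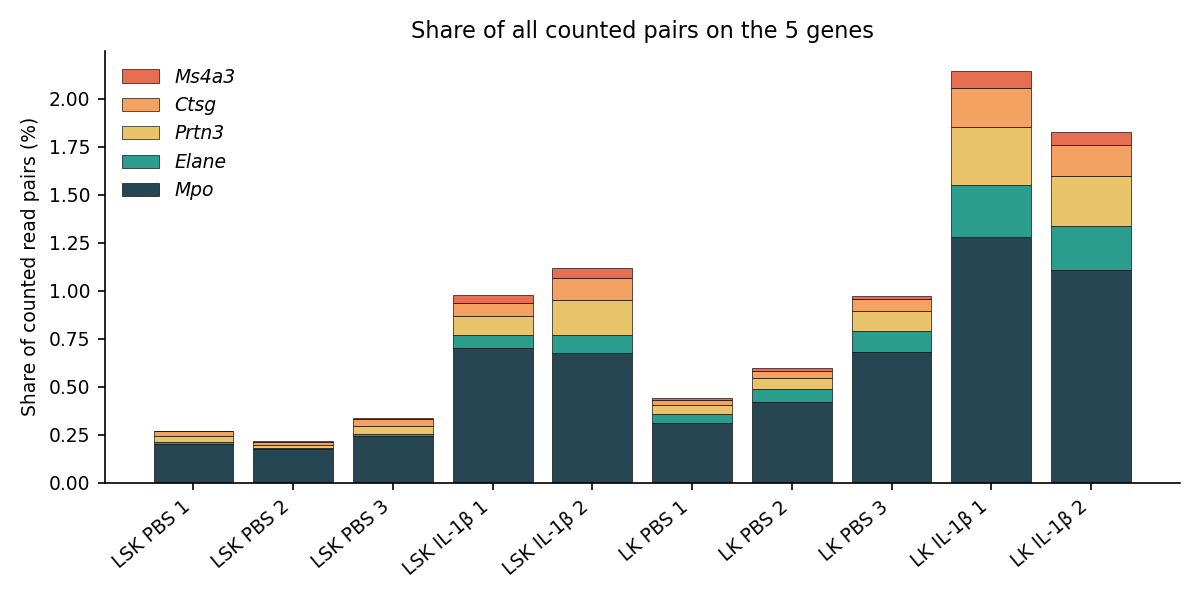
Share of all counted read pairs (%) on each of the 5 genes, stacked, in the 10 sorted libraries. The stacks reach at most 0.338% in LSK and 0.973% in LK libraries with PBS and at least 0.978% and 1.83% with IL-1β, and Mpo is the largest part of each.

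The proportions of the genes differed between the PBS and IL-1β libraries of LK cells, and in LSK cells for Elane and Ms4a3 against Mpo. In LK cells Mpo made up 70.2% to 70.9% of the counts on the 5 genes in the PBS libraries, even though its CPM differed more than 2-fold between them, and 59.6% and 60.6% in the IL-1β libraries. Scaling between libraries does not enter this share. The exact permutation p given here is the doubled one-sided value. With 3 libraries against 2 it cannot go below 0.2, which it gave for LK cells. In LSK cells the share was 71.3% to 80.9% with PBS and 60.4% and 71.8% with IL-1β, which overlap (exact permutation p = 0.4). Per kb of exon, Elane was at 0.149 ± 0.051 of the level of Mpo in the 3 PBS and 0.405 ± 0.104 in the 2 IL-1β libraries of LSK cells (± SD), and at 0.539 ± 0.047 and 0.732 ± 0.012 in LK cells. The same ratio for Ms4a3 was 0.0266 ± 0.0045 and 0.129 ± 0.032 in LSK cells and 0.0504 ± 0.0034 and 0.117 ± 0.010 in LK cells. Both ratios were higher in every IL-1β library than in every PBS library of the same population. For Prtn3 and Ctsg this held in LK cells, whereas their groups overlapped in LSK cells. The LK ratio went from 0.288 ± 0.006 to 0.467 ± 0.002 for Prtn3 and from 0.299 ± 0.012 to 0.505 ± 0.036 for Ctsg. The share of all genes with such a ratio to Mpo was not computed. Whether these genes stand out from others in their ratio was therefore not tested.

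**Figure D4:**
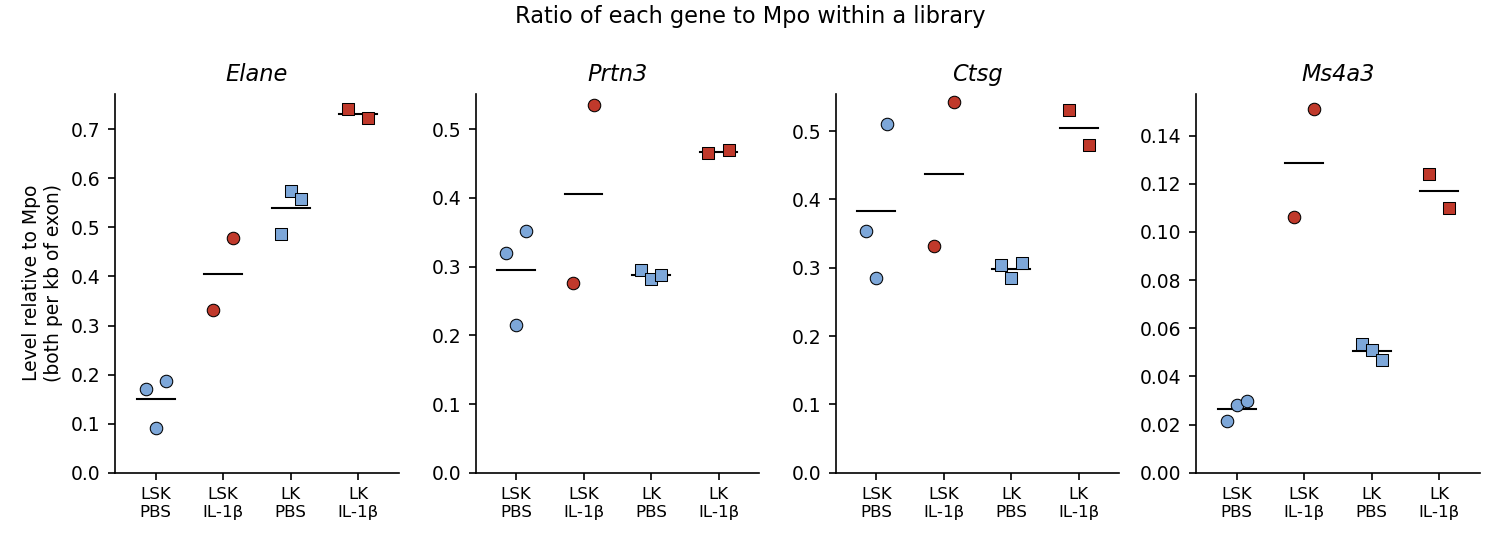
Level of Elane, Prtn3, Ctsg and Ms4a3 divided by that of Mpo in the same library, both as CPM per kb of exon, for LSK (circles) and LK (squares) cells with PBS (blue) or IL-1β (red), with the group mean as a line. In LK cells each ratio is higher with IL-1β, and in LSK cells the Prtn3 and Ctsg ratios overlap between treatments.

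LK cells contain the GMP, and under PBS the genes were mostly higher there than in LSK cells. Elane differed most between the populations, with 87 ± 38 CPM in LSK and 736 ± 333 CPM in LK cells (SD, n = 3), a log2 fold change of 3.08 (SE 0.38, adjusted p = 0.000163). It was followed by Ms4a3 at 2.13 (SE 0.27, adjusted p = 0.000198), Mpo at 1.24 (SE 0.26, adjusted p = 0.00357) and Prtn3 at 1.18 (SE 0.34, adjusted p = 0.0202). Ctsg was not called, at 0.85 (SE 0.35, adjusted p = 0.0794), and its libraries overlapped. With the replicate number as a block, which pairs LSK and LK libraries of one number, it was called at 0.86 (adjusted p = 0.00995). So 4 of 5 were called higher in LK cells, where 12.4% of all genes tested were, and 4 of 5 did not overlap (21.8% of all genes). Without both PBS replicate 3 libraries all 5 were called, Ctsg at 0.96 (adjusted p = 0.0242). Prtn3 was not called without LSK PBS replicate 2 (0.94, adjusted p = 0.0567) or without LK PBS replicate 3 alone (0.80, adjusted p = 0.0946).

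Under IL-1β the distance between the populations was smaller for 4 of the 5 genes and none was called. Each IL-1β LK library was above each IL-1β LSK library for 5 of 5 genes, as for 29.8% of all genes tested. The log2 fold changes of LK against LSK were 0.75 for Mpo (95% interval 0.06 to 1.44, adjusted p = 0.193), 1.60 for Elane (0.63 to 2.57, adjusted p = 0.0644), 0.95 for Prtn3 (0.05 to 1.85, adjusted p = 0.210), 0.96 for Ctsg (0.04 to 1.89, adjusted p = 0.215) and 0.62 for Ms4a3 (-0.08 to 1.32, adjusted p = 0.287). These 0 calls by edgeR stand beside 4 genes with an unadjusted p under 0.05, and 2.27% of all genes tested were called higher in LK cells. DESeq2 called 1 of the 5, Elane, and limma-voom 0. Elane was also called with the replicate number as a block (1.62, adjusted p = 0.00973) and without both PBS replicate 3 libraries (1.59, adjusted p = 0.0279). In this contrast the PBS libraries enter only through the shared spread and scaling.

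Set side by side, LSK cells with IL-1β reached or passed the level of LK cells with PBS. Their mean was 1.54 times that of LK cells with PBS for Mpo, 2.18 times for Prtn3, 2.25 times for Ctsg and 4.01 times for Ms4a3. For these 4 genes both LSK libraries were above all 3 LK libraries, but for Prtn3 only by 1002 against 998.7 CPM. Without TMM scaling Mpo and Prtn3 overlapped. Mpo was then at 6771 CPM in LSK IL-1β replicate 2 and at 6833 CPM in LK PBS replicate 3. Prtn3 was at 979.6 CPM in LSK IL-1β replicate 1 and at 993.9 CPM in LK PBS replicate 3. For Elane it was 1.15 times, and the libraries overlapped. These groups differ in both population and treatment, so the ratios are given without a test. The share of all genes with both LSK libraries above all 3 LK libraries was not computed. Whether these 4 genes stand out from other genes in this order was therefore not tested.

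The test of whether the response to IL-1β differed between the populations, an interaction over the 10 libraries, called none of the 5 genes (0.0289% of all genes tested were called in either direction). The LK response minus the LSK response was -1.51 for Ms4a3 (95% interval -2.42 to -0.60, unadjusted p = 0.00351, adjusted p = 0.179 by edgeR) and -1.48 for Elane (-2.71 to -0.25, unadjusted p = 0.0223, adjusted p = 0.281 by edgeR). It was -0.49 for Mpo (-1.38 to 0.39), -0.23 for Prtn3 (-1.39 to 0.93) and 0.11 for Ctsg (-1.08 to 1.30). The 0 calls by edgeR stand beside 2 genes with an unadjusted p under 0.05. DESeq2 called 1 of the 5, Ms4a3 (adjusted p = 0.0224), and limma-voom 0, and edgeR with no filter on low counts called Ms4a3 and Elane. Values were similar without both PBS replicate 3 libraries, at -1.54 for Ms4a3 and -1.52 for Elane.

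The genes that work with the 5 were followed in fixed lists, described by their counts. Of the 18 genes for the processing and packaging of granule proteases, 0 were called in LSK cells and 5 were called higher in LK cells. The share of all genes called higher was 0.32% in LSK and 6.77% in LK cells. In LK cells the list's median log2 fold change was 0.27 against -0.03 over all genes tested. In LSK cells its median was 0.53, against -0.06 over all genes. Those 5 were Cd63, a granule membrane tetraspanin that carries elastase to the granule (2.18, SE 0.23, adjusted p = 0.00440), Serpinb1a, an inhibitor of the 3 proteases (1.84, SE 0.32, adjusted p = 0.0236), Cst7, an inhibitor of lysosomal cysteine proteases (1.74, SE 0.24, adjusted p = 0.00964), Srgn, the proteoglycan that packs granule proteins (1.72, SE 0.26, adjusted p = 0.0116), and Calr, a chaperone of the endoplasmic reticulum that binds the Mpo precursor (1.33, SE 0.17, adjusted p = 0.00439). Ctsc, the peptidase that activates the 3 serine proteases, was not called, at 49.0 ± 7.9 and 47.2 ± 6.4 CPM in LSK cells and 29.2 ± 8.6 and 49.2 ± 0.7 CPM in LK cells with PBS and IL-1β. Nor were the chaperone Canx (0.35, adjusted p = 0.0604) and the sorting adaptor Gga2 (0.02, adjusted p = 0.928) in LK cells. Without PBS replicate 3 the list had 0 called in LSK and 7 in LK cells, Ctsc and G6pc3 among them.

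Of 20 genes listed as other genes of primary granules and lysosomes, 19 were tested in each population. The list also holds genes of other proteins, such as Igsf6. In LSK cells 1 was called higher, Ctsz, the lysosomal cathepsin Z (1.53, SE 0.24, adjusted p = 0.0262), and 0 lower. The share of all genes called higher there was 0.32%. In LK cells 10 were called higher (6.77% of all genes tested were) and 0 lower, with a median of 0.69. They were led by Prss57, which encodes the fourth serine protease of the primary granules, at 52.0 ± 22.9 CPM in the 3 PBS and 239 ± 23 CPM in the 2 IL-1β libraries (± SD), with a log2 difference of 2.20 (SE 0.34, adjusted p = 0.0195). Igsf6 (2.08), Nkg7, a granule membrane protein of cytotoxic cells (1.88), and Arsb, a lysosomal sulfatase (1.71), followed. Lyz2, the lysozyme, which neutrophils share with monocytes, was not called, at 107 ± 21 and 68 ± 18 CPM in LSK and 44.7 ± 15.6 and 31.5 ± 6.4 CPM in LK cells with PBS and IL-1β. Also uncalled were Plac8 (1.24) and Man2b1 (0.10) in LSK cells, and Rab44 (0.43, adjusted p = 0.661) and Ctsd, cathepsin D (0.23, adjusted p = 0.267), in LK cells. Bpi, another granule protein, had too few counts for a test. Without PBS replicate 3 the list had 3 called higher in LSK (Ctsz, Igsf6 and Prss57) and 12 in LK cells (12.3% of all genes were then).

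Among 14 transcription factors of the granulocyte lineage, 7 were called higher and 2 lower in LK cells. Of all genes tested there, 6.77% were called higher and 2.57% lower. C/EBPε, the factor of the secondary granule stage, is encoded by Cebpe, which was at 17.3 ± 6.9 CPM with PBS and 76.4 ± 13.2 CPM with IL-1β (2.15, SE 0.30, adjusted p = 0.00885). Gfi1, a repressor needed for neutrophil development, rose by 2.07 (adjusted p = 0.00957), and Cebpb, Cebpd, Spi1 (which encodes PU.1) and Cebpa rose by 1.51, 1.42, 1.35 and 1.33. Irf8, which steers progenitors to monocytes, fell by 2.59 in LK (adjusted p = 0.0122) and by 2.48 in LSK cells (adjusted p = 0.0207). Klf4, another monocyte factor, was called lower in LK cells (-3.25, adjusted p = 0.0205) at under 5 CPM in every LK library. Id1, an inhibitor of basic helix-loop-helix factors, rose by 4.60 in LSK (adjusted p = 0.0207) and by 2.52 in LK cells (adjusted p = 0.00669). In LSK cells Id1 and Irf8 were the only factors of the list called, and Cebpe was at 2.5 ± 2.2 and 27.2 ± 2.1 CPM there (adjusted p = 0.0882). Myb was not called in either population, with log2 fold changes of 0.05 and 0.40, nor was Etv6, with -0.57 and 0.27. Without PBS replicate 3, 2 factors were called higher in LSK (Id1 and Cebpe) and 8 in LK cells, with Irf8 lower in both. The share of all genes called higher was then 0.591% in LSK and 12.3% in LK cells.

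The later granules were followed through a list of 22 genes, of which 19 were tested in each population. It is named for secondary and tertiary granules but also holds genes of other neutrophil proteins, such as Ltb4r1 and Padi4. The median log2 fold change of the list was 1.97 in LSK and 2.74 in LK cells. Several of its genes were near 0 with PBS, so their fold changes rest mostly on the IL-1β libraries. S100a9 had a PBS mean of 0.27 CPM in LSK and 1.46 CPM in LK cells. For Mmp9 it was 0.076 CPM in LSK and for Chil3 0.71 CPM in LK cells. In LSK cells 3 were called higher (0.32% of all genes tested were) and 0 lower. Lcn2, an iron-siderophore binding protein of the secondary granules, was at 1.27 ± 0.70 CPM with PBS and 133 ± 19 CPM with IL-1β (6.71, SE 0.44, adjusted p = 0.000497), Hp, haptoglobin, at 22.7 ± 3.1 and 273 ± 25 CPM (3.62, SE 0.25, adjusted p = 0.000497), and Ltb4r1, the leukotriene B4 receptor, at 5.9 ± 1.7 and 30.9 ± 3.1 CPM. In the cultured MSC, Lcn2 (6.07, adjusted p = 0.000268) and Hp (5.22, adjusted p = 0.0247) were called higher too. There 5 of 11 tested genes of the list were called higher and 0 lower, and Ltb4r1 was not tested. Among all 13239 genes tested in MSC, 945 were called higher and 570 lower. In LK cells 12 were called higher (6.77% of all genes tested were) and 0 lower. At the top were Chil3, a chitinase-like protein (7.45, adjusted p = 0.0102), S100a9 (5.97, adjusted p = 0.0362), Lcn2 (5.65, adjusted p = 0.000541) and S100a8 (5.61, adjusted p = 0.000262). S100a8 and S100a9, the calprotectin subunits that mature neutrophils make in bulk, reached 120 ± 48 and 84 ± 50 CPM in LK cells with IL-1β (SD, n = 2). Ltf, Camp and Ngp, which encode defining proteins of the secondary granules, reached 11.2 ± 10.1, 5.6 ± 6.3 and 31.7 ± 28.5 CPM there and were not called. Their PBS means in LK cells were 0.88, 0.58 and 1.97 CPM. The log2 fold changes were 3.75, 3.38 and 4.11 (adjusted p = 0.0918, 0.238 and 0.210 by edgeR). Cyba, a subunit of the oxidase (1.00, adjusted p = 0.189), and Padi4, which citrullinates histones (-0.94, adjusted p = 0.196), were not called in LSK cells, nor was Padi4 in LK cells (0.81, adjusted p = 0.246). Without PBS replicate 3 the list had 3 called in LSK and 12 in LK cells, and S100a9 and Chil3 were not among the 12. The share of all genes called higher was then 0.591% in LSK and 12.3% in LK cells.

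Of 10 growth factor receptors and surface proteins of granulocyte progenitors, 0 were called in LSK cells. In LK cells 6 were called higher and 0 lower: Csf3r, the G-CSF receptor (1.97, adjusted p = 0.0218), Csf2rb, the shared beta chain of the GM-CSF, IL-3 and IL-5 receptors (1.96, adjusted p = 0.00104), Fcgr3, the Fc receptor used to sort GMP (1.82, adjusted p = 0.0105), Csf2ra (1.60, adjusted p = 0.0197), Csf2rb2 and Ptprc. Kit and Cd34, the surface markers of the early progenitors, were not called in either population. Without PBS replicate 3 the count in LK cells was also 6, but Csf3r and Csf2ra were not among them. The share of all genes called higher in LK cells was 6.77% with that library and 12.3% without it.

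**Figure D5:**
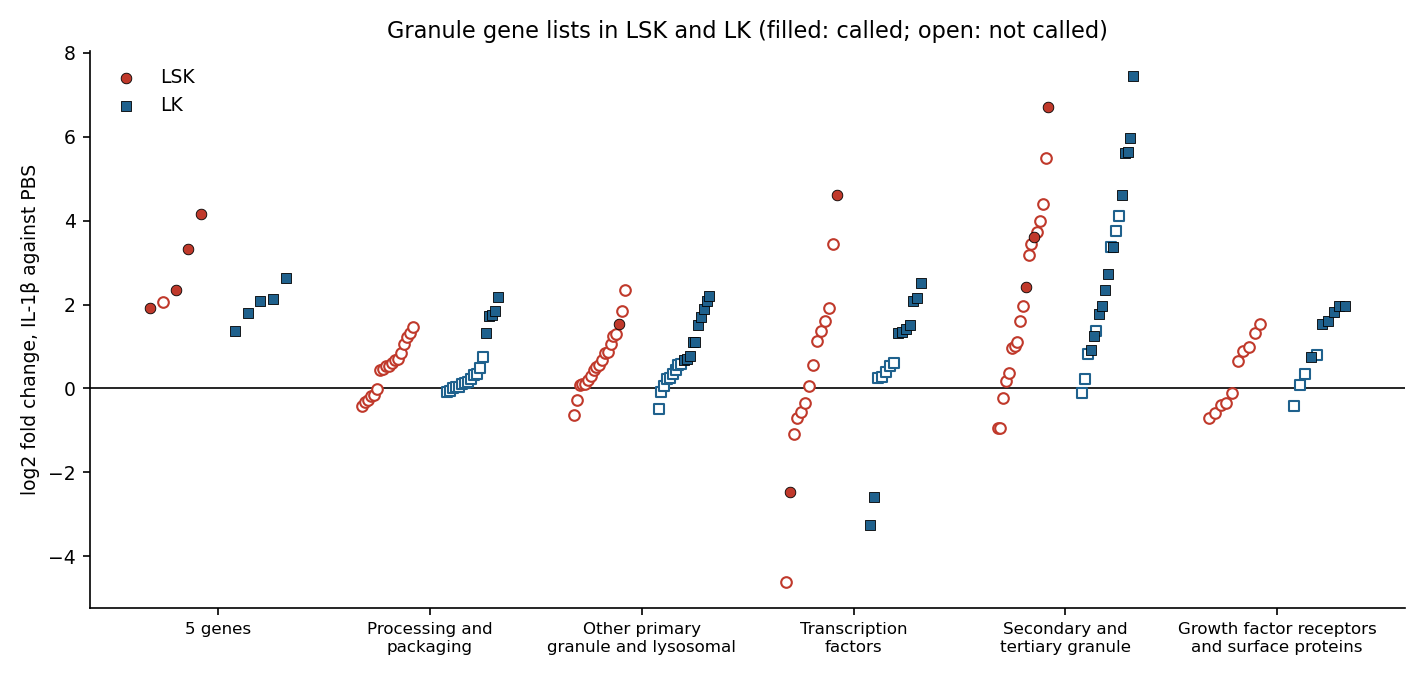
Log2 fold change of IL-1β against PBS (vertical axis) for the 5 genes and for each tested gene of the 5 lists, in LSK (red circles) and LK (blue squares) cells. Filled symbols were called and open symbols were not, and the secondary and tertiary granule list has the highest median, 1.97 in LSK and 2.74 in LK cells.

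Over the 10 sorted libraries, the genes with the pattern most like the mean of the 5 were found by the root mean square difference of centred log2 CPM among 7842 genes outside the lists with a mean of at least 4 log2 CPM. The median gene stood 1.45 log2 units away. Rgcc, a regulator of the cell cycle that responds to complement, was nearest at 0.33, with 8.0 ± 0.9 CPM in LSK cells with PBS and 71.8 ± 17.4 CPM with IL-1β, and 33.6 ± 2.0 and 105.8 ± 9.7 CPM in LK cells. Next came Pglyrp1, a peptidoglycan recognition protein of neutrophil granules (0.41), Anxa3, an annexin abundant in neutrophils (0.42), Ap3s1, a subunit of the AP-3 adaptor that sorts lysosomal proteins (0.50), and Hdc, the histamine-forming enzyme of basophils and mast cells (0.51). The 5 were picked for a profile that holds the IL-1β difference, so no count of calls is given for them. The likeness is a description and shares the depth and scaling of the libraries. Among the 5 granule genes themselves Prtn3 and Ctsg, proteases of different chromosomes, had the most similar profiles (0.17), and Mpo and Elane the least (0.96), while the adjacent Prtn3 and Elane differed by 0.80.

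The surroundings of the 5 genes were then looked at, in a window of 50000 bases chosen after the values were seen. Next to Prtn3 and Elane, Ptbp1 (log2 fold change -0.01 in LSK and 0.09 in LK cells), Med16 (0.11 and -0.06) and R3hdm4 (0.39 and 0.07) were not called, and Cfd, the complement factor D gene 2638 bases past Elane, was below 1 CPM in the mean of every sorted group. Arid3a had similar log2 fold changes in LK (1.20, adjusted p = 0.00791) and LSK cells (1.09, adjusted p = 0.120) and was called in the former. Its response did not pass the test of a difference between the populations (0.15, adjusted p = 0.885 by edgeR). Beside Ms4a3, at a distance of 5777 bases, Ms4a2, the beta chain of the IgE receptor of mast cells and basophils, rose from 5.8 ± 2.7 to 51.6 ± 22.6 CPM in LSK (3.19, adjusted p = 0.0210) and from 23.0 ± 5.5 to 114 ± 49 CPM in LK cells (2.32, adjusted p = 0.00897). The mast cell and basophil markers together were at 365 to 442.5 CPM with PBS and 613 to 740 CPM with IL-1β in LSK cells and at 310 to 554.5 and 1385 to 2610 CPM in LK cells. Mcpt8, the basophil protease gene near Ctsg, was not called (1.04, adjusted p = 0.127 in LSK, and 2.66, adjusted p = 0.136 in LK cells).

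On the other strand, within Mpo, lies the gene Gm11505. It was counted at 53.5, 39.2 and 0.757 CPM in LSK cells with PBS and at 254.5 and 139.7 CPM with IL-1β, and at 61.2, 74.0 and 1.44 CPM and 363 and 363 CPM in LK cells. Replicate 3 was thus near 0 in both populations while Mpo was at its highest there, as for the other genes inside opposite-strand genes. Outside replicate 3, Gm11505 held 1.85% to 3.55% of the Mpo count in each library, and 0.0331% and 0.0209% in replicate 3. It was not called (adjusted p = 0.264 in LSK and 0.325 in LK cells). Plppr3, on the other strand, overlaps the 5′ part of the Prtn3 gene in the files and was not called (0.44, adjusted p = 0.413 in LSK, and 0.85, adjusted p = 0.178 in LK cells).

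In the cultured MSC the 5 genes were close to absent. Mpo had 3 and 6 counts with PBS (replicates 2 and 3) and 23 and 9 with IL-1β (replicates 1 and 2) among 5834909 to 30871055 counted pairs, Prtn3 1 and 6 against 24 and 3, Elane 2 and 1 against 6 and 1, Ctsg 0 and 2 against 1 and 2, and Ms4a3 0 and 0 against 2 and 0. The highest level was 0.794 CPM, for Mpo, and none of the 5 passed the filter on low counts, so none was tested. A count of 0 allows up to 3 counts, and such limits cover counting error only. The cultures carried the monocyte and macrophage markers at a summed 11232 to 15061 CPM with PBS and 30936 to 31844 CPM with IL-1β, above the 1840 to 3738 and 4204 to 4721 CPM of the mesenchymal markers, so the label MSC does not cover all cells whose RNA was counted. Lyz2 alone was at 5968 ± 1648 CPM in the PBS and 20338 ± 658 CPM in the IL-1β cultures (SD, n = 2 each).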

How the data were processed

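RNA-seq was analysed for 10 sorted libraries (LSK and LK, PBS or IL-1β) and 4 MSC libraries, grouped by the sample labels. The deposited values are counts of read pairs per gene, not normalized. Libraries were rRNA-depleted. Per the file headers and the submitters' processing notes, the authors used fastp 0.20.0, HISAT2 2.0.1, SAMtools 1.10 and featureCounts 2.0.2 in reverse-stranded mode on GRCm38 genes, and their methods also name GenomicAlignments. The counting command has no option for pairs that map to several places or genes, so near-identical genes can lose reads. A further IL-1β MSC library that a header names was not analysed here. Symbols came from GENCODE M21 for 55141 of 55487 identifiers. Depth was 4393233 to 30871055 counted pairs.

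Tests on the counts used edgeR 4.0.16 under R 4.3.3 (genes kept by filterByExpr, scaling by TMM, then estimateDisp, robust glmQLFit and glmQLFTest), within a population or over the 10 sorted libraries for contrasts between LSK and LK and the interaction. The SE is the log2 fold change divided by the root of F. Alternatives were DESeq2 1.42.0, limma-voom (limma 3.58.1), other scaling factors, other filters, other sets of libraries and the replicate block. The fits were tested on simulated data. Log2 CPM used a prior count of 2. Deviations from the group means were correlated between LSK and LK libraries of the same number (r = 0.211, 0.128 and 0.471 for PBS replicates 1 to 3 and 0.100 for IL-1β, over 13839 genes) and were treated as pairs in the block. The value for IL-1β is the same for both numbers by construction. Libraries of different numbers gave r = 0.162 (LSK 2 with LK 1) and 0.124 (LSK 1 with LK 2) among PBS replicates 1 and 2, so only replicate 3 stood clearly with its own number, and no source states a shared mouse.

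The genes named are the 5, the 5 nearest in profile and, from each list and population, up to 4 called genes with the largest fold change and the 2 uncalled genes with the highest level. Markers, gene neighbours and further members of lists were named after their values were seen, as was the choice to leave out PBS replicate 3 of both populations at once. The 5 genes and all lists were chosen with earlier results of these data known. Promoters were read from RefSeq (GRCm38.p6). Figures were drawn with matplotlib 3.10.9.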

Additional observations from a re-analysis of the deposited data

How the results depend on the processing

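Every log2 fold change of IL-1β against PBS for the 5 genes stayed positive under all 15 alternatives in LSK and all 15 in LK cells, as did those of LK against LSK cells under all 21. The IL-1β side has 2 libraries per population, and they are the shallowest sorted libraries. The number of genes called in LSK cells was 4 of 5, with 1 to 5 over the libraries left out in turn, and in LK cells 5 of 5, with 0 to 5. Without IL-1β replicate 1 in LK cells, which leaves an arm of 1 library, 0 were called and 61 of all genes were called higher in place of 869. With no filter on low counts 3 were called in LK cells, since Elane (adjusted p = 0.205) and Ctsg (0.132) were lost. Ctsg in LSK cells was called under 8 of 15 alternatives (log2 fold change 1.68 to 2.48, adjusted p 4.05e-09 to 0.380), and Prtn3 there was lost with limma-voom (adjusted p = 0.0555). For LK against LSK cells under IL-1β, where 0 were called, 3 were called with no filter and 1 each with DESeq2, with the libraries of that treatment alone, with the replicate block and without both PBS replicate 3 libraries, and 0 to 1 with a library left out in turn. The interaction gave 1 call with DESeq2 and 2 with no filter, in place of 0. Over all genes, the calls in LSK cells ranged from 3 to 547 higher and 0 to 681 lower (42 and 41 in the report), and in LK cells from 61 to 1499 higher and 5 to 910 lower (869 and 330). The interaction ranged from 0 to 228 higher and 0 to 170 lower (3 and 1). The cause of these changes was not tested.

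Without TMM the mean of Mpo in LSK cells with IL-1β was 6894 CPM in place of 7232. With profiles centred within LSK and within LK cells, 3 of the 5 nearest genes were kept (Rgcc, Pglyrp1 and Anxa3).

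Between PBS and IL-1β libraries of 1 population the replicate numbers are only shared numbers (r = 0.126 and -0.035 in LSK, -0.102 and 0.033 in LK cells). With the replicate block the 5 genes were all called in LSK (314 of all genes higher and 388 lower) and in LK cells (1462 and 869). With the block of LSK and LK libraries the interaction had 23 genes higher in place of 3, none of them among the 5, and the calls of Ctsg with PBS and Elane with IL-1β given above were the only ones of the 5 it changed between LK and LSK cells. No paired analysis was possible for MSC because the treatments share 1 replicate number.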

Other observations

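The summed level of the 4 eosinophil markers was 61.0 to 224 CPM in LK cells with PBS and 1106 to 1657 CPM with IL-1β, with Prg2, the eosinophil major basic protein, at 118.5 ± 65.4 CPM (SD, n = 3) and 1053 ± 351 CPM (SD, n = 2). By edgeR 2 of the 4 were called higher, but not Prg2 (log2 fold change 3.15, adjusted p = 0.0641) or the peroxidase Epx (3.92, adjusted p = 0.0730). With PBS replicate 3 left out, 3 were called, Prg2 among them. Over all genes tested in LK cells, 6.77% were called higher with that library and 12.3% without it. Cpa3, a carboxypeptidase of mast cells and basophils, was called higher in LSK (1.97, adjusted p = 0.0255) and LK cells (2.24, adjusted p = 0.0185). It was called without PBS replicate 3 in LSK but not in LK cells, where 1 of the 7 mast cell and basophil markers then tested was called, Ms4a2.

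Of 11 erythroid markers in LK cells, 4 were called lower and 0 higher, among them Gata1 (-0.88, adjusted p = 0.00481), and their sum was 3389 to 4284 CPM with PBS and 2334 to 2504 CPM with IL-1β. Over all genes tested in LK cells, 2.57% were called lower. Without PBS replicate 3, 8 of the 11 erythroid markers were called lower, beside 910 of the 12216 genes tested. In LSK cells 0 of the 10 erythroid markers tested were called, with sums of 440 to 595 CPM with PBS and 528 to 718 CPM with IL-1β. Dntt, the terminal transferase of lymphoid progenitors, was at 190 ± 140 CPM in LSK cells with PBS and 4.8 ± 2.6 CPM with IL-1β (-5.36, adjusted p = 0.0161), and was the only one of the 6 lymphoid markers called there, of 2 tested. The part of these markers in the levels of the 5 granule genes was not tested.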
